A study of Mus musculus with 6 samples.

Results

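The BCL2 family genes described here were 9 of the 22048 genes in the deposited table of neural stem/progenitor cells (NSC/NPCs), a fixed list found by gene symbol. The list held 3 pro-survival genes (Bcl2, Bcl2l1 and Mcl1) and 6 pro-death genes, of which Bax and Bak1 encode pore-forming proteins and Bcl2l11, Bbc3, Pmaip1 and Bid encode BH3-only proteins. All 9 passed the filter on low values and were among the 13952 genes tested. Another 76 apoptosis genes were listed for comparison.

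The RNA came from neurospheres, floating clusters grown from dissociated hypothalami of male C57BL/6 fetuses at E14.5 and harvested at first passage. Dams of the HE group were gavaged daily with 100 μg/kg of estradiol valerate, E5.5 through E11.5. In the NC group the treatment tag of the samples reads untreated, while their protocol names corn oil. There were 3 HE and 3 NC samples, each with cells of 2 mice, and all were grown with EGF and bFGF. Dosing ended at E11.5, before the cells were isolated at E14.5. The labels do not state whether the samples of a group came from different litters, so the p-values measure only the spread between these samples. In bulk RNA of this kind, fewer cells of a type and less RNA per cell cannot be told apart.

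Proteins of the BCL2 family decide whether the outer mitochondrial membrane is opened during intrinsic apoptosis. BAX and BAK form the pores, pro-survival members bind and restrain them, and BH3-only members either activate the pore-formers or occupy the pro-survival members. Cytochrome c leaves through the pores, binds APAF1 and activates caspase-9, which activates the executioner caspases. In the developing nervous system this pathway removes progenitors and young neurons. Much of its control acts on protein stability, cleavage and binding, which mRNA levels do not show.

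The samples held 16078675 to 19137059 reads on genes. HE3 stood apart. The mean chi-square per gene between the read counts of HE3 and the other HE samples was 81.7 and 86.6, against 15.6 to 45.6 for the other 4 pairs within a group, so the fold changes below are also given without HE3. The progenitor markers Sox2 and Nes were abundant in every sample. In RPKM, reads scaled by gene length and library total, Sox2 was at 195.5 to 208.9 in NC. It was lower in every HE sample, at 175.6, 172.4 and 97.3 RPKM in HE1, HE2 and HE3. Nes, at 154 to 247 RPKM, overlapped between the groups. Summed over 6 genes of cycling cells, the level was 163 to 221 RPKM in NC and 264 to 423 RPKM in HE, and all 6 genes lay above NC in every HE sample. The 6 microglial genes summed to 0.271 to 0.694 RPKM in NC and 1.09 to 5.74 RPKM in HE, with Ptprc at 0 in 2 samples, and C1qa at 0 in 2. C1qa and C1qb lay above NC in every HE sample, while Csf1r, Cx3cr1, Aif1 and Ptprc overlapped between the groups. The 5 endothelial genes summed to 0.888 to 1.31 RPKM in NC and 2.53 to 3.67 RPKM in HE. Cdh5 led the HE sums, at 0.341 to 0.755 RPKM in NC and 1.66 to 2.75 RPKM in HE. Cldn5 was also higher in HE without overlap, on 1 to 6 reads per sample, while Pecam1, Kdr and Tek overlapped. The 5 mesenchymal genes summed to 21.0 to 68.9 RPKM in NC and 60.8 to 138.6 RPKM in HE. Of these, Col3a1 and Dcn were higher in HE without overlap, while Col1a1, Col1a2 and Lum overlapped. The astrocyte genes summed to 1365 to 1722 RPKM in NC and 933.8 to 1362 RPKM in HE, those of the oligodendrocyte lineage to 192 to 213 and 210.4 to 332 RPKM, the neuronal genes to 42.0 to 71.0 and 48.1 to 65.7 RPKM, and the progenitor genes to 2841 to 3533 and 2789 to 4496 RPKM. Such sums are led by the most abundant genes. Among the 5 astrocyte genes S100b ran against the sum, at 5.42 to 9.30 RPKM in NC and 10.6 to 15.5 RPKM in HE. Aldh1l1 was lower in HE without overlap. Gfap, Aqp4 and Slc1a3 overlapped between the groups, with log2 fold changes below 0. Of the 6 neuronal genes, Map2 and Snap25 were higher in HE without overlap. The other 4 overlapped, with log2 fold changes below 0. In the oligodendrocyte lineage Olig1 was higher in HE, at 133.5 to 140.3 RPKM in NC and 143.2 to 312.5 RPKM in HE. The other 5 genes had log2 fold changes below 0, and the median of the 6 was -0.52. Among the 6 progenitor genes, Fabp7 had a log2 fold change above 0 and the other 5 below 0. The part of these marker values in the results below was not tested.

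None of the 9 members passed the adjusted threshold, and the differences described here were seen only at the level of single samples and unadjusted p-values. Bcl2l1 among the pro-survival members, and Bcl2l11 and Bid among the BH3-only members, were lower in every HE sample than in every NC sample. Bak1 and Pmaip1 were higher in every HE sample. The differences thus ran in both directions among the pro-death members, and Bcl2 and Mcl1 did not separate the groups. In limma on log2(RPKM + 0.1), 0 of the 9 had an adjusted p-value under 0.05 with a log2 fold change of at least 1 either way, as had 0% of all 13952 genes. Of the 9 members 5 had an unadjusted p-value under 0.05, against 20.5% of all genes tested. Of these, 2 were higher in HE (8.68% of all genes) and 3 lower (11.8%). The same 5 members were the ones whose groups did not overlap, against 32.7% of all genes, 14.8% with HE above NC and 17.9% with HE below. With sample weights, 6.28% of all genes and 2 members, Bcl2l11 and Pmaip1, had an adjusted p-value under 0.05. With 3 samples against 3, an exact two-sided permutation test of a single gene cannot give a p-value below 0.1.

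**Figure D1:**
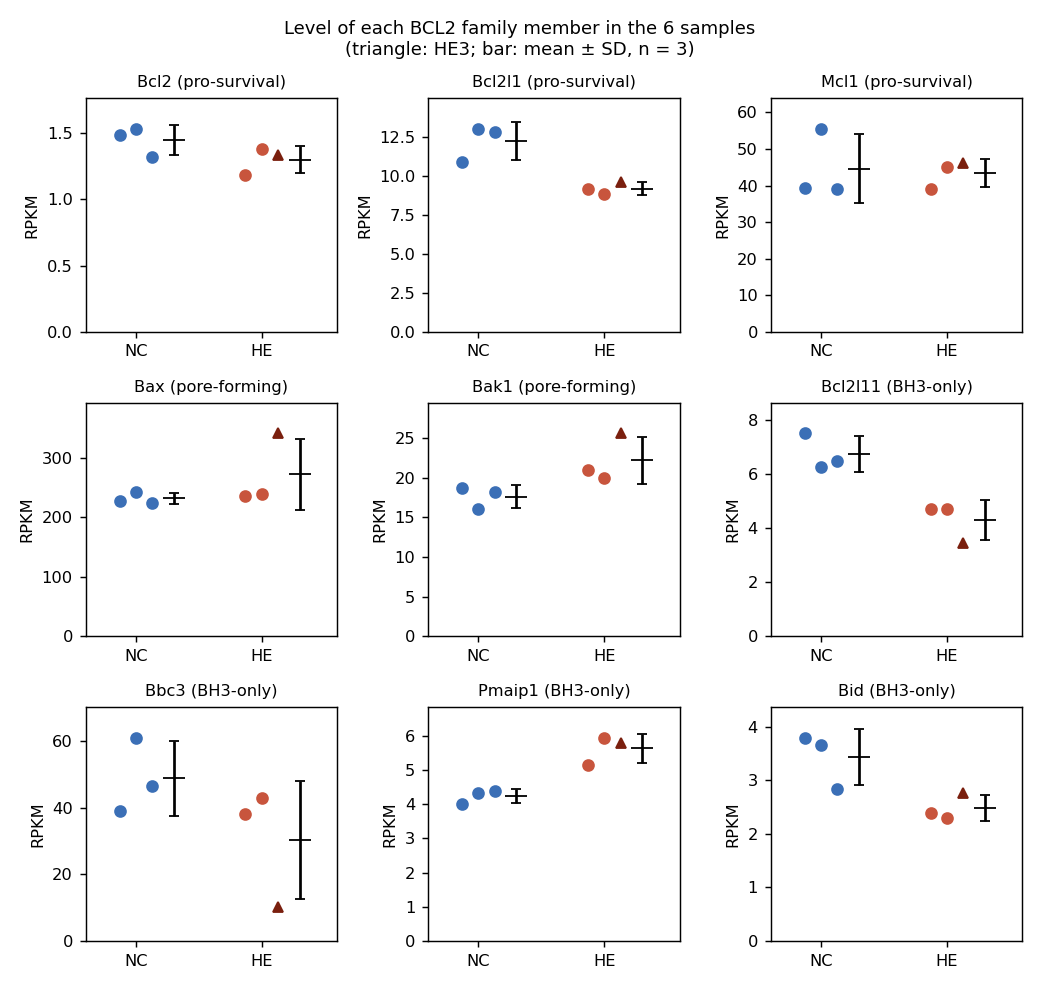
RPKM (vertical axes, from 0) of each of the 9 members in the 3 NC and 3 HE samples, with HE3 as a triangle and the mean ± SD of each group beside the points (n = 3). Bcl2l1, Bcl2l11 and Bid lie lower in all HE samples than in all NC samples, Bak1 and Pmaip1 lie higher, and Bbc3 is at 10.2 RPKM in HE3 against 38.1 to 61.1 RPKM in the other samples.

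Among the pro-survival members, Bcl2l1 encodes BCL-XL, which keeps young neurons alive during development. It is a protein-coding gene on chromosome 2 from 152758732 to 152833803 (GRCm38.p6, minus strand). Bcl2l1 was at 10.9, 13.01 and 12.8 RPKM in NC1, NC2 and NC3 and at 9.13, 8.80 and 9.59 RPKM in HE1, HE2 and HE3. The HE samples lay close together, and all of them lay under the lowest NC sample. The means were 12.2 ± 1.19 RPKM in NC and 9.18 ± 0.394 in HE (RPKM ± SD, n = 3 each), and the log2 fold change was -0.41 (SE 0.12, limma adjusted p = 0.195). Without HE3 the log2 fold change was -0.44. With each sample left out in turn it lay between -0.49 and -0.36. The gene also makes a short pro-death splice form, and counts per gene do not separate the forms.

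Bcl2, the founding member of the family, and Mcl1, a short-lived protein on which neural progenitors depend, showed no separation of the groups. Bcl2 (chromosome 1, 106538176 to 106714290) was at 1.49, 1.54 and 1.32 RPKM in NC and at 1.18, 1.38 and 1.34 RPKM in HE. The HE values overlap those of NC, with a log2 fold change of -0.14 and a 95% interval from -0.54 to 0.25, and of -0.17 without HE3. It rested on 194 to 269 reads per sample, for which counting error alone gives a 95% Poisson interval of 12.1% to 14.3% to either side. Mcl1 (chromosome 3, 95656944 to 95663179) was at 39.4, 55.5 and 38.9 RPKM in NC and at 39.1, 45.1 and 46.3 RPKM in HE. NC2 was the highest of the 6 samples, and the other 5 spanned 38.9 to 46.3 RPKM. For Mcl1 the log2 fold change was -0.02 with a 95% interval from -0.40 to 0.36, and without HE3 it was -0.07. It turned to 0.15 without NC2, so that its direction depended on single samples.

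The pore-forming members were at higher mean levels in HE, and HE3 was the highest of the 6 samples for both. Bax (chromosome 7, 45461695 to 45466903) was at 228, 243 and 225 RPKM in NC and at 236.0, 239.7 and 342 RPKM in HE. HE1 and HE2 lay within the NC range. For Bax the log2 fold change was 0.21 (SE 0.17, limma adjusted p = 0.465) with all samples, and 0.04 without HE3. Bak1 (chromosome 17, 27019812 to 27028627) was at 18.7, 16.02 and 18.2 RPKM in NC and at 21.0, 20 and 25.6 RPKM in HE. For Bak1 all 3 HE samples lay above NC, with means of 17.6 ± 1.41 and 22.2 ± 3.01 RPKM (SD, n = 3 each). Its log2 fold change was 0.33 (SE 0.13, limma adjusted p = 0.234), and without HE3 it was 0.22 with an unadjusted p-value no longer under 0.05. Bok encodes a further pore-forming protein, related to BAX and BAK, and was not among the 9. It was at 10.2, 9.66 and 9.50 RPKM in NC and at 12.3, 13.3 and 14.5 RPKM in HE, above NC in every HE sample. Its log2 fold change was 0.44 (SE 0.11, limma adjusted p = 0.195), and 0.38 without HE3.

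The BH3-only members differed in direction. Bcl2l11 encodes BIM, which can bind every pro-survival member and is induced in neurons deprived of growth factors. It lies on chromosome 2 from 128126038 to 128162547 (plus strand). Bcl2l11 was at 7.52, 6.28 and 6.48 RPKM in NC and at 4.72, 4.73 and 3.45 RPKM in HE. All HE samples lay under the lowest NC sample by more than 1.5 RPKM, and HE3 was the lowest. The means were 6.76 ± 0.666 and 4.30 ± 0.736 RPKM (SD, n = 3 each), and the log2 fold change was -0.65 (SE 0.17, limma adjusted p = 0.195), the smallest unadjusted p-value of the 9 (0.00614). Without HE3 the log2 fold change was -0.50. Its splice forms, which differ in potency, are likewise not separated by counts per gene.

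Bid encodes the protein that caspase-8 cleaves to link death receptors to mitochondria, and was lower in HE. Bid (chromosome 6, 120893119 to 120917062) was at 3.80, 3.67 and 2.84 RPKM in NC and at 2.39, 2.30 and 2.77 RPKM in HE. NC3 and HE3 were nearly equal, so that the groups were apart by a narrow gap. The log2 fold change of Bid was -0.44 (SE 0.17, limma adjusted p = 0.228), on 152 to 253 reads per sample, and -0.52 without HE3.

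Pmaip1 encodes NOXA, a BH3-only protein that binds MCL1, and was higher in HE, unlike Bcl2l11 and Bid. Pmaip1 was at 4.01, 4.32 and 4.39 RPKM in NC and at 5.15, 5.94 and 5.81 RPKM in HE. The NC samples spanned less than 0.5 RPKM, and every HE sample lay above them. The means were 4.24 ± 0.204 and 5.63 ± 0.424 RPKM (SD, n = 3 each), and the log2 fold change was 0.40 (SE 0.13, limma adjusted p = 0.197), and 0.38 without HE3.

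Bbc3 encodes PUMA, a BH3-only protein best known as a p53 target, and its group difference rested mainly on HE3. Bbc3 (chromosome 7, 16308398 to 16318334) was at 38.9, 61.1 and 46.5 RPKM in NC and at 38.1, 42.9 and 10.2 RPKM in HE. HE3 held 329 reads of Bbc3, whereas the other samples held 1369 to 2346. The difference of Bbc3 on the log2 scale was -0.91 (SE 0.52, limma adjusted p = 0.328), the largest in size among the 9 and the least precise, with a 95% interval from -2.13 to 0.32. Without HE3 it was -0.25, with HE1 just under the NC range and HE2 within it.

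**Figure D2:**
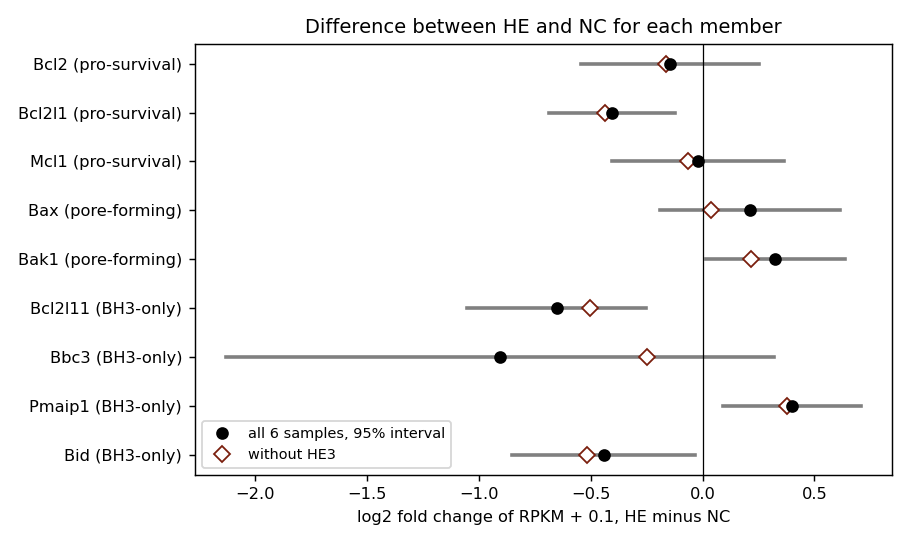
Log2 fold change of RPKM + 0.1 (HE minus NC, horizontal axis) of the 9 members from limma, with 95% intervals as bars, and the same value without HE3 as open diamonds. Bbc3 moves from -0.91 to -0.25 and Bax from 0.21 to 0.04 when HE3 is left out, while Bcl2l1, Pmaip1 and Bid stay near their values.

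Per kilobase, Bax mRNA was the most abundant member in both groups and Bcl2 the least. In NC the order of mean levels was Bax at 232 RPKM, Bbc3 at 48.8, Mcl1 at 44.6, Bak1 at 17.6, Bcl2l1 at 12.2, Bcl2l11 at 6.76, Pmaip1 at 4.24, Bid at 3.43 and Bcl2 at 1.45 RPKM. Bbc3 and Mcl1 overlapped over the 3 NC samples, and all other neighbours in that order were apart. In HE the order was Bax at 272, Mcl1 at 43.5, Bbc3 at 30.4, Bak1 at 22.2, Bcl2l1 at 9.18, Pmaip1 at 5.63, Bcl2l11 at 4.30, Bid at 2.49 and Bcl2 at 1.30 RPKM. Mcl1 overlapped Bbc3, and Bbc3 overlapped Bak1. Pmaip1 and Bcl2l11 thus stood in opposite order in the groups, with ranges that did not overlap in either group. Mcl1 made up most of the pro-survival mRNA in all 6 samples, where the 3 pro-survival members summed to 49.4 to 70.1 RPKM and Mcl1 alone was at 38.9 to 55.5 RPKM. These levels depend on the gene lengths in the deposited table, which range from 869 bases for Bax to 9157 bases for Bcl2.

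Set against each other as a mean over the list, the pro-survival and pro-death members did not separate HE from NC. In each sample the mean log2(RPKM + 0.1) of the 3 pro-survival members minus that of the 6 pro-death members was taken. The difference was -0.90, -0.69 and -0.84 in NC1, NC2 and NC3 and -0.97, -0.89 and -0.62 in HE1, HE2 and HE3. The groups overlapped, with HE3 at the top and HE1 at the bottom, and the HE mean was 0.013 below the NC mean with a spread between samples of 0.151 (pooled SD, log2 scale). Without HE3 the HE mean was lower by a log2 difference of -0.12, and without HE1 or NC2 it was higher, by 0.057 and 0.046, so that the sign of this difference depended on single samples. Within the pro-death members the differences had opposite signs. Relative to the NC mean, the pore-forming members averaged 0.14, 0.12 and 0.55 in HE1, HE2 and HE3 on the log2 scale, whereas the 4 BH3-only members averaged -0.26, -0.18 and -0.75. The pro-survival members averaged -0.28, -0.16 and -0.12. With summed RPKM in place of the mean of logs, a measure that Bax dominates, the HE mean was lower by a log2 difference of -0.20, and the groups still overlapped.

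Ratios of single pairs separated the groups in 3 of the 4 pairs taken. The 3 pairs are not independent, since Bcl2l1 and Bax recur in them, and Bcl2l1 alone separated the groups. Of single genes tested, 32.7% did not overlap between the groups, and the share over all gene pairs is not given here. The ratio of Bcl2l1 to Bax was 0.0475, 0.0536 and 0.0569 in NC and 0.0387, 0.0367 and 0.0281 in HE. For Bcl2l1 to Bak1 the ratio was 0.581, 0.812 and 0.703 in NC and 0.435, 0.440 and 0.374 in HE. Both ratios were lower in all HE samples than in any NC sample, which for Bcl2l1 to Bak1 follows from the values of each gene. The Bcl2l1 to Bak1 ratio had a mean of 0.699 ± 0.116 in NC and 0.417 ± 0.0369 in HE (SD, n = 3 each). The ratio of Bcl2 to Bax was 0.00653, 0.00632 and 0.00588 in NC and 0.00501, 0.00576 and 0.00392 in HE, with HE2 just under NC3. The ratio of Mcl1 to Bcl2l11 ran the other way and overlapped, at 5.25, 8.84 and 6.01 in NC and 8.29, 9.54 and 13.4 in HE. No test was made of these scores and ratios, since the members were chosen with results of these samples known.

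**Figure D3:**
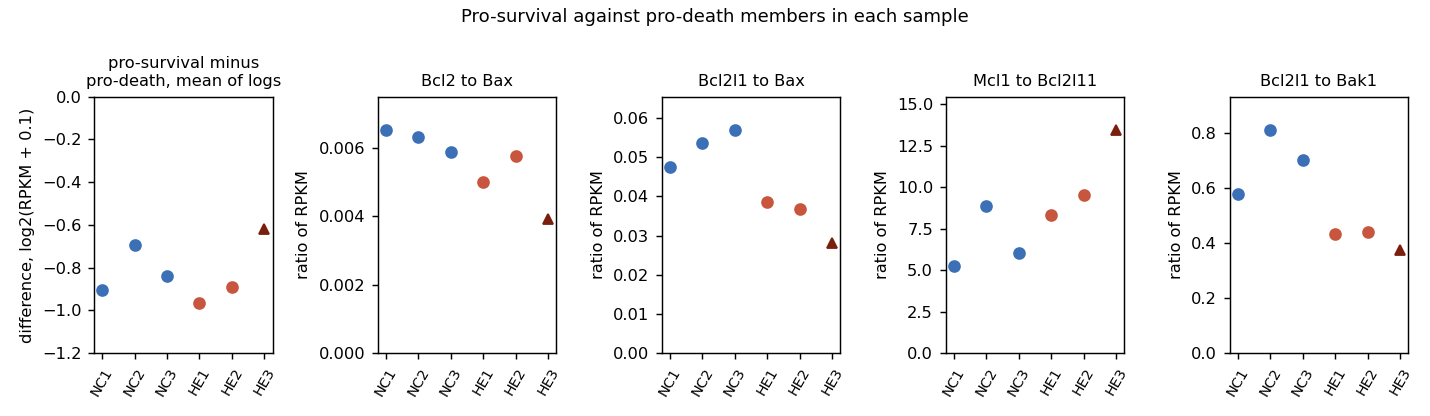
Per sample (horizontal axis), the mean log2(RPKM + 0.1) of the 3 pro-survival minus the 6 pro-death members (first panel) and the RPKM ratio of 4 pairs (other panels, from 0), NC in blue, HE in red and HE3 as a triangle. The first panel overlaps between the groups, while Bcl2l1 to Bax and Bcl2l1 to Bak1 lie lower in all HE samples than in all NC samples.

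Of the 5 other pro-survival genes listed, 4 were below the filter. Bcl2l2, which passed it, was at 11.7, 12.2 and 10.5 RPKM in NC and at 10.6, 10.2 and 7.43 RPKM in HE. Its groups overlapped, with a log2 fold change of -0.30 (SE 0.16, limma adjusted p = 0.306). The leukocyte pro-survival genes Bcl2a1a, Bcl2a1b and Bcl2a1d had 0 reads in all 6 samples, which allows up to 3 reads or 0.182 to 0.228 RPKM per sample, and their near-identical sequences could split reads. Bcl2l10, and the less well understood Bcl2l14 and Bcl2l15, were also below the filter. The 4 other BH3-only genes had log2 fold changes below 0, beside a median of -0.06 over all genes tested. For Bad the value was -0.02, above that median, with 21.6 to 25.2 RPKM in NC and 19.7 to 27.0 RPKM in HE. None of the 4 had an unadjusted p-value under 0.05, beside 20.5% of all genes. Bmf, one of them, was at 10.9, 24.8 and 11.1 RPKM in NC and at 11, 12.02 and 5.08 RPKM in HE, so that NC2 stood high and HE3 low, and its log2 fold change was -0.71, or -0.33 without HE3. Bcl2l12, whose role in apoptosis is less settled, was at 5.72 to 6.15 RPKM in NC and 3.97 to 5.55 RPKM in HE. The mitophagy receptors Bnip3 and Bnip3l, both known to be induced by low oxygen, set HE3 apart. Bnip3 was at 21.4 RPKM in HE3 and at 105 to 126 RPKM in the other 5 samples, and Bnip3l at 23.2 RPKM against 59.8 to 71.6 RPKM. Their log2 fold changes were -0.77 and -0.58 with all samples, and 0.06 and -0.12 without HE3.

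Cycs, which encodes the cytochrome c that leaves through the pores, was at higher levels in HE. Cycs was at 25.3, 24.4 and 28.1 RPKM in NC and at 34.8, 33.3 and 75.4 RPKM in HE, with a log2 fold change of 0.78 that became 0.39 without HE3. All HE samples lay above NC, and HE3 was more than 2 times the other HE samples.

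Casp8, the initiator caspase of the death receptors that cleaves BID, was at 5.56, 4.32 and 4.23 RPKM in NC and at 3.49, 2.86 and 3.61 RPKM in HE. Like Bid, Casp8 was lower in every HE sample, with a log2 fold change of -0.48 (SE 0.17, limma adjusted p = 0.210) and of -0.55 without HE3. Tradd, an adaptor of the TNF receptor, was at 7.52 to 9.69 RPKM in NC and 5.83 to 6.46 RPKM in HE, and its log2 fold change was -0.42, or -0.38 with HE3 left out. The inflammatory caspase Casp4 and the related Casp12 were low, with log2 fold changes of -1.18 and -1.07, and of -1.42 and -1.17 without HE3. Their NC samples were unequal, at 0.342 to 1.28 RPKM for Casp4 and 1.07 to 2.19 RPKM for Casp12, and both genes overlapped between the groups. Of the 7 caspases tested from the list, 0 were higher and 3 lower at an unadjusted p-value under 0.05, with and without HE3, beside 11.8% lower among all genes tested.

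Vdac2, an outer membrane channel that holds BAK and BAX at mitochondria, was at 32.9 to 41.4 RPKM in NC and 47.8 to 62.5 RPKM in HE, apart in all samples (log2 fold change 0.54, SE 0.14, limma adjusted p = 0.195, and 0.43 without HE3). Bag6, which encodes a chaperone cofactor, was at 38.9 to 40.6 RPKM in NC and 18.7 to 34.5 RPKM in HE, with a log2 fold change of -0.61 (-0.37 without HE3). Birc5, which encodes survivin and is also a gene of mitosis, was at 8.77 to 12.3 RPKM in NC and 12.7 to 19.1 RPKM in HE, and Lmnb1, a nuclear lamin cut by caspases, at 28.5 to 36.0 and 34.1 to 56.6 RPKM. Each had a log2 fold change of 0.51, which without HE3 was 0.32 for Birc5 and 0.35 for Lmnb1. The 6 cycling-cell genes given above were higher in HE too, and their part in the values of Birc5 and Lmnb1 was not tested. Over the 68 tested genes of all these lists, 12 (17.6%) had an unadjusted p-value under 0.05, 6 higher and 6 lower in HE, which is near the 20.5% of all genes. Without HE3 the numbers were 4 higher and 9 lower, beside 1305 higher and 1470 lower of all 13952 genes. The median log2 fold change of the 68 was -0.12, beside -0.06 over all genes tested.

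**Figure D4:**
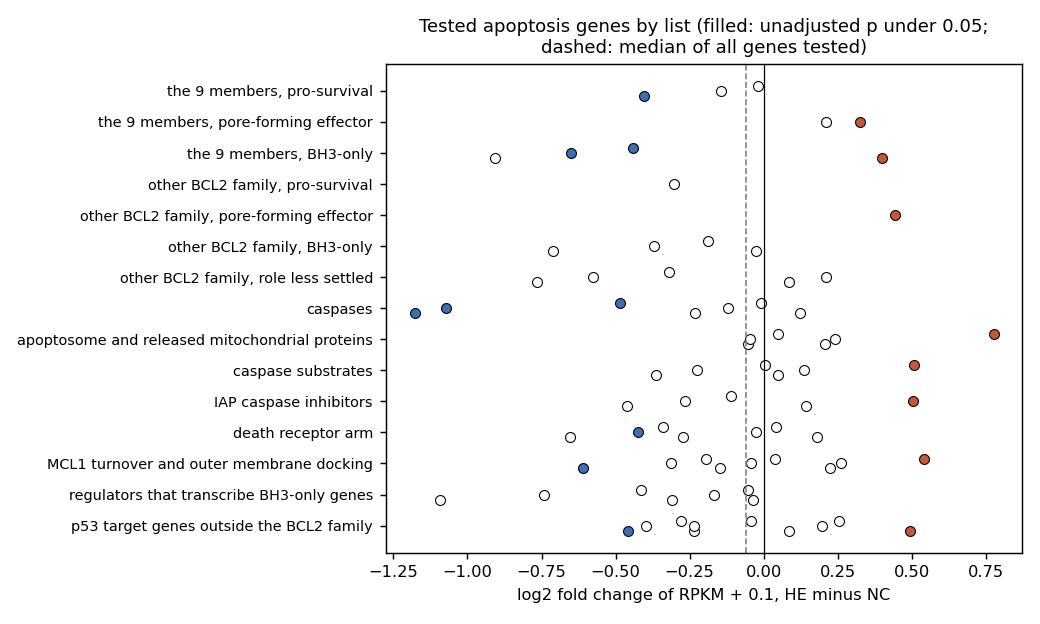
Log2 fold change of RPKM + 0.1 (HE minus NC, horizontal axis) of each tested apoptosis gene, grouped by list, with filled points at an unadjusted p-value under 0.05 (red higher, blue lower) and a dashed line at the median of all genes tested, -0.06. Filled points lie on both sides within the BH3-only members and the p53 targets, and Bok is the filled point at 0.44.

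Regulators known to transcribe BH3-only genes were listed as well, and all 7 had log2 fold changes below 0. The median over all genes tested was below 0 too, at -0.06, and Trp53, at -0.05, was not below that median. With median-of-ratios scaling the median over all genes was -0.0014. The share of all genes with a log2 fold change below 0 is not given here. None of the 7 had an unadjusted p-value under 0.05, beside 20.5% of all genes. Without HE3, 2 of them were lower at that level, beside 1470 lower of all 13952 genes. Ddit3, which encodes CHOP of the unfolded protein response, was at 161, 181 and 117 RPKM in NC and at 104, 114 and 29.5 RPKM in HE. Foxo3, a transcription factor restrained by growth factor signaling, was at 37.8, 37.5 and 32.6 RPKM in NC and at 26.7, 31.8 and 11.6 RPKM in HE. Both were lowest in HE3, the sample in which Bbc3, Bcl2l11, Bmf, Bnip3 and Bnip3l were lowest too. Other listed genes, among them Fas, Xiap and Bag6, were also lowest in HE3. Of the 9 members, HE3 was lowest for 2 and highest for 2. The share of all genes that were lowest in HE3 is not given here, and a link to Ddit3 or Foxo3 was not tested. On the log2 scale the difference was -1.09 for Ddit3 and -0.74 for Foxo3, and without HE3 it was -0.47 and -0.30. The 10 listed p53 targets outside the family had differences of both signs, as had Bax, Bbc3 and Pmaip1, known p53 targets within it. Ccng1 was at 49.3 to 69.9 RPKM in NC and 73.3 to 97.1 RPKM in HE, and Sesn2 at 33.0 to 37.5 and 21.4 to 28.0 RPKM, and of the 10 these were the ones with an unadjusted p-value under 0.05. Their log2 fold changes were 0.49 and -0.46, or 0.51 and -0.52 without HE3.

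**Figure D5:**
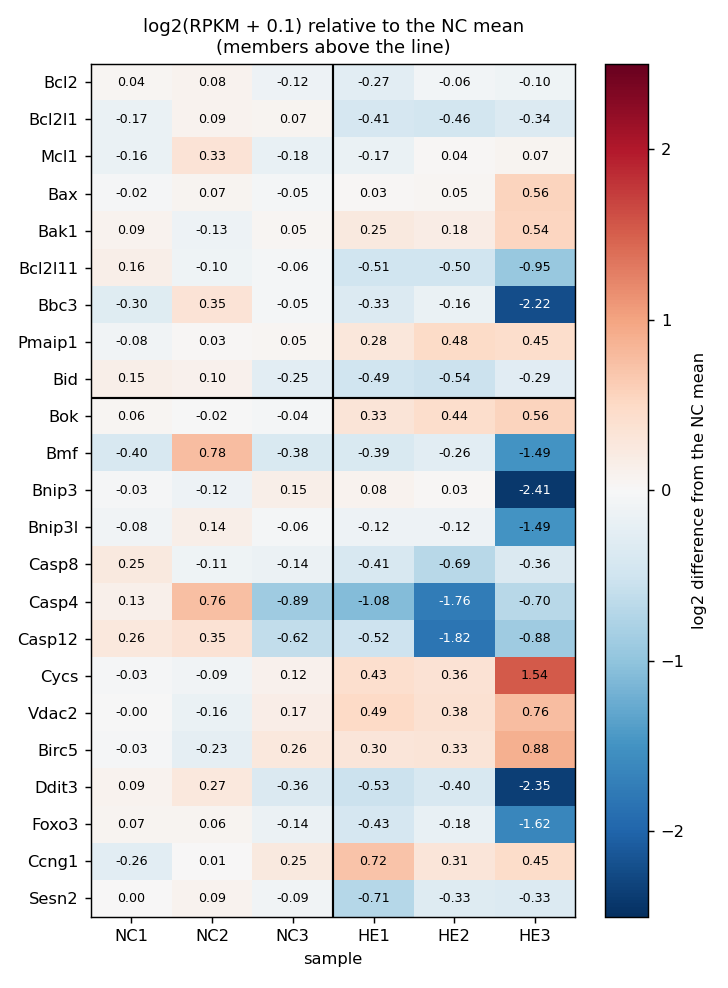
Log2(RPKM + 0.1) of the 9 members (above the line) and 14 other apoptosis genes (rows) in each sample (columns), relative to the mean of the NC samples, red for higher and blue for lower. HE3 holds many of the deepest values, with Bbc3 at -2.22, while Bcl2l1 and Pmaip1 are of similar size in all 3 HE samples.

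The sequence before the annotated starts of members is shown because the groups of Bcl2l11, Bcl2l1, Bid and Bak1 did not overlap and because Bbc3 set HE3 apart. RefSeq promoter windows of GRCm38.p6, the build named mm10 in the labels, matched 8 of the 9 members with 13 starts, and the 250 bases before each start were searched on both strands. The motifs were the estrogen response element (GGTCANNNTGACC), the FOXO site (GTAAACA), the E2F site (TTTCGCGC or TTTGGCGC), the CHOP/ATF4 site (TGATGNAA), the GC box (GGGCGG) and the p53 site. A FOXO site stood in 1 window each of Bcl2l11 and Bbc3, among the 13, and in 3.17% of all 32851 windows. The other windows of Bcl2l11 and Bbc3 held no FOXO site. An E2F site stood in 1 window of Bcl2l1, which has 3, and in 0.654% of all windows, and GC boxes in 9 of the 13 windows and in 32.7% of all windows. Some windows of Bbc3 overlap each other. GC content was 47.6% to 81.6% in the 13 windows, against a median of 52.4% over all promoters, and its part in the matches was not tested. The estrogen response element and the p53 site, each in 0.0639% of windows, and the CHOP/ATF4 site, in 3.45%, had no match in these windows. A match is a match of letters and shows neither binding nor use of that start. Capitals mark the matches, which do not overlap in the windows shown. In Bcl2l11 the first is the FOXO site and the other 3 are GC boxes, in Bbc3 a GC box is followed by the FOXO site on the reverse strand, in Bcl2l1 the match is the E2F site on the reverse strand, in Bid all 3 are GC boxes, and the window of Bak1 holds none. The windows are Bcl2l11 at chr2:128125788-128126037 (plus strand), Bbc3 at chr7:16310011-16310260 (plus strand), Bcl2l1 at chr2:152830718-152830967 (minus strand), Bid at chr6:120916825-120917074 (minus strand) and Bak1 at chr17:27028628-27028877 (minus strand), each printed 5′ to 3′ in the direction of the gene.
Bcl2l11: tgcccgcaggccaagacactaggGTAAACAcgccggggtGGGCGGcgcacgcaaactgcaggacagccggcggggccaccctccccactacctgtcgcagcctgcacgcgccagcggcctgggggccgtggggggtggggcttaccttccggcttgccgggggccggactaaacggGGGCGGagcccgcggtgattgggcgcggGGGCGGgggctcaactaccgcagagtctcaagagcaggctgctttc
Bbc3: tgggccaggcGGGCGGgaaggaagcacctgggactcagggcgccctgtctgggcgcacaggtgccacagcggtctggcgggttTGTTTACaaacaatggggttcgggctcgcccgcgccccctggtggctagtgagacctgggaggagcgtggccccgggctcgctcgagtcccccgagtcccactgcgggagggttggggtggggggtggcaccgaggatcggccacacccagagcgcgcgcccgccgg
Bcl2l1: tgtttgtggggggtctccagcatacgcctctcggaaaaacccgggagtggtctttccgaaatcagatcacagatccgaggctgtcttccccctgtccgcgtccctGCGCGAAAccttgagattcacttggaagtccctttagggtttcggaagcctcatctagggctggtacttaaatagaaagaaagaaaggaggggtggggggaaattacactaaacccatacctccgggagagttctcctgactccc
Bid: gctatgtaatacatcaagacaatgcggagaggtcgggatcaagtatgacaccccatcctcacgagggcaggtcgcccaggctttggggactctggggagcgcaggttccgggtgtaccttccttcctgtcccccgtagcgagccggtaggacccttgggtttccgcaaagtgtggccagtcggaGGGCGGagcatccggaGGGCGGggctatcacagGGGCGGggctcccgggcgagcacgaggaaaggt
Bak1: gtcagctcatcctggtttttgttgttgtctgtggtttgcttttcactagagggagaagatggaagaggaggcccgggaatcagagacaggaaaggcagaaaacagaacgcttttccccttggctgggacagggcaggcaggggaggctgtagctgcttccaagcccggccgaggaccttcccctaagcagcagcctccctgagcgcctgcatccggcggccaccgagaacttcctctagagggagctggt

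The FOXO match of Bcl2l11 began 227 bases before the start and that of Bbc3 167 bases before, in reading direction of the gene. The Bcl2l11, Bbc3 and Foxo3 mRNAs were each lowest in HE3, as were other listed genes. Bcl2l11 and Foxo3 were lower in all HE samples than in all NC samples. Whether these values are linked was not tested.

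Over the 6 samples, the genes most like the members with the smallest unadjusted p-values were found by Pearson correlation of log2(RPKM + 0.1) among 11524 tested genes with a mean of at least 1 RPKM. The samples share their group difference, and with so many genes high values arise among 6 points, so these are descriptions. For Bcl2l11 they were Plppr2, Tyk2 and Cc2d1a (r = 0.999, 0.998 and 0.996). For Bcl2l1 they were Tkfc, Zfp866 and Dock1 (r = 0.987, 0.976 and 0.962), and for Pmaip1 Slc6a11, Camk2b and Sephs2 (r = 0.996, 0.996 and 0.995). Slc6a11, a GABA transporter of astrocytes, was at 16.9 to 27.2 RPKM in NC and 46.1 to 78.8 RPKM in HE.

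Some members share their span with other annotated genes. Bcl2l1 overlaps Cox4i2, which was at 19.1 to 29.4 RPKM in 5 samples and at 1.03 RPKM in HE3 with 13 reads, while Bcl2l1 in HE3 was close to HE1 and HE2. Bak1 overlaps Ggnbp1, with 22 to 180 reads per sample against 738 to 992 for Bak1. Bcl2l11 overlaps Acoxl, which had 2 to 12 reads. The use of strand in counting is not given in the sources used here, so reads of overlapping genes could be shared.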

How the data were processed

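The RNA-Seq samples of hypothalamic NSC/NPCs, 3 HE and 3 NC, were grouped by their titles. The authors aligned filtered reads with Tophat2 to mm10, and the submitters' processing notes also name CASAVA 1.7. The libraries were strand-specific (dUTP), and the counting tool, annotation and use of strand in counting are not given in the sources used here. The deposited table holds RPKM, computed by the authors from read counts, gene length and the total of each sample, and the read counts themselves. RPKM differed from that formula by at most 4.99e-07.

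Read counts are written with commas inside the numbers and were recorded under another unit, and RPKM was used for the main test. The count tests named for this kind of data, and in the study's methods, were not run. With the commas removed, voom was run on the counts as an alternative. Group differences were tested on log2(RPKM + 0.1) in limma 3.58.1 (R 4.3.3, eBayes with trend), the model holding group alone, with Benjamini-Hochberg adjustment over 13952 of 22048 genes. Tested genes reached, in 3 or more samples, a rate equal to 10 reads at the median library total, and 15 reads over all samples together. The fit was tested on simulated data. Symbols were found for 21781 identifiers. At this depth 1 read on 1 kilobase is 0.0523 to 0.0622 RPKM. Intervals on counts cover counting error only.

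The 9 members and all gene lists were chosen with earlier results of these data known. All members are named. Of other lists, up to 5 genes with the smallest unadjusted p-values are named, though not every gene this allows. Bnip3, Bnip3l, Fas and Xiap were named for their level in HE3, and Cox4i2, Ggnbp1 and Acoxl for their overlap, after their values were seen. Marker genes come from lists of 5 or 6 genes per cell type, and some of them were named after their values were seen. Alternatives were another pseudocount, median-of-ratios scaling, 2 other filters, voom, sample weights, the replicate number as a block and each sample left out. DE lncRNAs were not analysed here, and 1 apoptosis gene is not reported here.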

Additional observations from a re-analysis of the deposited data

How the results depend on the processing

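In all 14 fits 0 of the 9 members and 0 of the 68 other apoptosis genes passed both thresholds. Over all genes 0 were called except with sample weights (268) and without NC3 (103), so that leaving out 1 sample moved the count from 0 to 103. With sample weights, which set HE3 to 0.158 and the other samples to 0.852 to 2.87, Bcl2l11 and Pmaip1 had adjusted p-values of 0.0389 and 0.0489 in limma at log2 fold changes of -0.56 and 0.45. Over the alternatives their adjusted p-values reached 0.502. The members with an unadjusted p-value under 0.05 numbered 3 with median-of-ratios scaling (Bcl2l1, Bcl2l11 and Pmaip1) and 2 (without NC1) to 4 with 1 sample left out, 3 of them without NC2, HE1 or HE2. Among the other apoptosis genes the number was 5 without NC1 or NC2 and up to 14 with another sample left out, and over all genes it was 1342 (without NC1) and 1638 (without NC2) to 3107. The log2 fold change of Mcl1 turned positive with median-of-ratios scaling (0.041), with sample weights (0.049) and without HE1, and ranged from -0.11 to 0.15 (without NC2) with 1 sample left out. That of Bnip3 ranged from -1.19 to 0.055, the latter without HE3. The other 24 of 26 genes followed kept their sign in every alternative. The cause of these differences was not tested. The pro-survival minus pro-death difference was -0.20 with summed RPKM and 0.10 without Pmaip1, and with 1 sample left out it ranged from -0.12 (without HE3) to 0.057 (without HE1), turning positive also without NC2 (0.046) and HE2 (0.021), against -0.013.

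Same-numbered HE and NC samples deviated together only weakly, with correlations of 0.156, 0.0869 and 0.0603 over genes, so the numbers were not taken to pair the samples, although each sample correlated best with its own number. With the replicate block, 4 members had an unadjusted p-value under 0.05, 0 were called, and 3184 genes had an unadjusted p-value under 0.05 against 2858. Bcl2, Pmaip1 and Bid rest on 152 to 300 reads per sample, which limits how small a difference can be seen.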
